A study of Mus musculus with 12 samples.

Results

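Macrophages grown with the PARP inhibitor olaparib were compared with macrophages grown with MNA (methyl-nicotinamide), a methylated relative of the vitamin from which cells make NAD. The comparison used 7 of the study's 12 RNA-seq libraries, olaparib 1 to 4 and MNA 1, 3 and 4. MNA 2 was set aside, and this choice was made on measured values: its expression profile lay with the DMSO libraries. The 7 libraries were therefore selected on the same expression data that the comparison reports, so the counts and adjusted p of the 7-library fit are a description that depends on that choice. The fit of all 8 libraries labelled olaparib or MNA keeps MNA 2, on genes filtered without it, and its values are given beside the others. Of 35275 listed genes, the 12871 with 10 or more counts in at least 3 of the 7 libraries were tested. At the edge of this filter, 303 genes reached 10 counts in exactly 3 of the 7 libraries, with a median of 9.14 counts per library, and 351 genes did so in 2 libraries, with a median of 7, and were left out. Among the tested genes, 281 reached 10 counts in no MNA library of the 7 and 45 in no olaparib library, so these passed through 1 group alone, which selects for a difference (212 of the former were called higher and 41 of the latter lower). Named genes and lists with such members are pointed out.

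All cultures were wild-type bone marrow-derived macrophages (BMDMs), that is, macrophages cultured from marrow cells of mice. They were kept for 6 days with MCSF, IL4 and IL10 together with DMSO (the solvent), olaparib or MNA, so every group, controls included, received these cytokines. The labels give no dose, and whether the olaparib and MNA doses were matched is not given in the sources used here. According to the study's methods, bone marrow was taken from female or male mice a few weeks old, and donor mice are named as the source of the olaparib and MNA cultures. Which library came from which mouse is not given in the sources used here, so the p-values measure the spread between these cultures. MNA was included to ask whether it acts on macrophages as PARP inhibition does. Total counts on genes were 24947905 to 28766984 in the olaparib libraries, 24076240 to 25942885 in MNA 1, 3 and 4, 27501216 in MNA 2 and 21146291 to 31446849 in the DMSO libraries, so depth overlapped between the groups.

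PARP enzymes use NAD to attach ADP-ribose to proteins, most of all at broken DNA, and olaparib occupies the NAD site of PARP1 and PARP2. MNA is made in cells from nicotinamide, the product that PARP enzymes release when they spend NAD. Macrophages that receive IL4 and IL10 take on an alternatively activated state, with arginase 1, chitinase-like 3 and the mannose receptor as its best known products. Interferon-gamma drives another state, in which guanylate-binding proteins and MHC class II molecules are made in quantity.

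The first and second principal components of the log2 CPM values held 49.7% and 25.2% of the variance. CPM are counts per 1000000 counts of the TMM-scaled library. MNA 1, 3 and 4 lay apart from all other libraries on the first component and the olaparib libraries on the second. By the root mean square log2 difference over the tested genes, MNA 2 lay 0.337 to 0.424 from the DMSO libraries and 0.908 to 0.952 from MNA 1, 3 and 4. DMSO libraries differed among themselves by 0.371 to 0.477, MNA 1, 3 and 4 by 0.402 to 0.485 and olaparib libraries by 0.345 to 0.447. Each olaparib library lay 0.817 to 0.882 from MNA 1, 3 and 4. Why MNA 2 lay with DMSO was not tested.

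**Figure D1:**
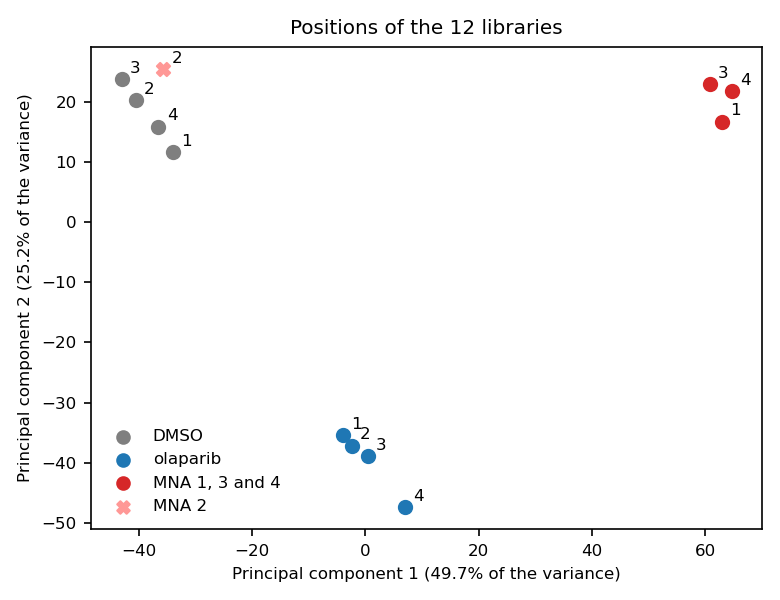
Each point is 1 of the 12 libraries, placed by the first (horizontal) and second (vertical) principal component of log2 CPM, with its replicate number. MNA 2 (cross) lies beside the 4 DMSO libraries, while MNA 1, 3 and 4 lie at the right and the 4 olaparib libraries at the bottom.

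At a Benjamini-Hochberg adjusted p under 0.05 from edgeR's quasi-likelihood test, the 7-library fit called 2687 genes higher (20.9% of those tested) and 2602 lower (20.2%) with olaparib than with MNA. With MNA 2 included as labelled, 983 genes were higher (7.64%) and 881 lower (6.84%), and 976 and 875 with the count minimum set over the 8 libraries, an alternative added after seeing the data. With the replicate number as a block, the 8-library fit called 809 higher and 449 lower, and the 7-library fit 2592 and 2535. Of the 2687 and 2602 genes, 982 and 881 were also called in the 8-library fit, each in the same direction. The common dispersion, edgeR's measure of spread between replicates, was 0.0111 without and 0.0451 with MNA 2. The olaparib libraries lay above all 3 MNA libraries in 3047 genes (23.7%) and below them in 2942 (22.9%). Against all 4 MNA libraries these numbers were 1492 (11.6%) and 1266 (9.84%). A difference of at least 2-fold was seen in 937 of the higher and 426 of the lower genes, and the median size of a called log2 difference was 0.51.

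The 4 DMSO libraries took no part in this fit and give the background level. Of the 2687 genes higher with olaparib, the DMSO mean lay above both treated means in 1100 (40.9%), between them in 464 nearer MNA and 707 nearer olaparib, and below both in 416 (15.5%). Of the 2602 lower genes, it lay below both in 1272 (48.9%) and above both in 266 (10.2%). In these 1100 higher and 1272 lower genes both treatments stood on one side of DMSO, and MNA 1, 3 and 4 stood farther from it than olaparib. Over all tested genes DMSO was below both in 36.5% and above both in 35.7%. Among the genes called in both fits the picture changed, with DMSO above both in 20 of 982 higher genes (2.04%) and below both in 92 of 881 lower ones (10.4%). MNA 2, which lay with DMSO, takes part in the 8-library fit and so in the choice of those genes.

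**Figure D2:**
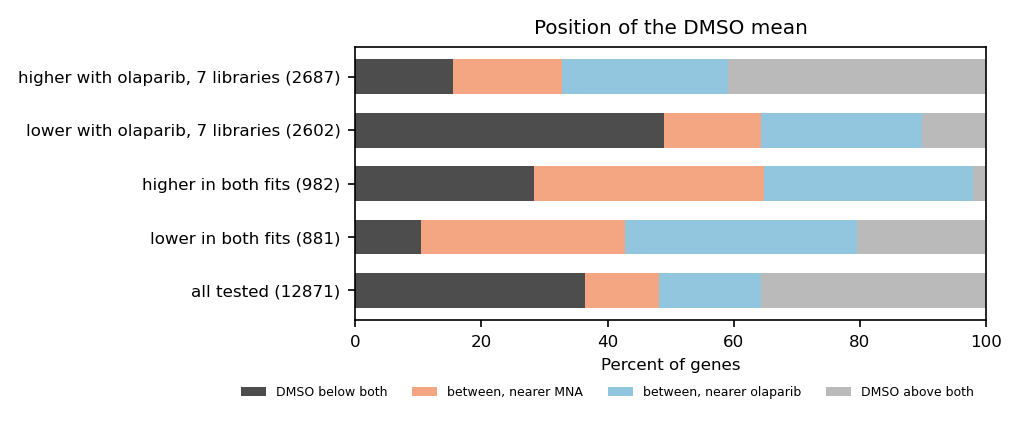
Bars give the percent of genes in which the DMSO mean log2 CPM lay below, between or above the means of olaparib and of MNA 1, 3 and 4, for 4 sets of called genes and for all 12871 tested genes. DMSO lay above both treatments in 40.9% of the genes called higher with olaparib in 7 libraries and in 2.04% of those called higher in both fits.

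Genes are named by rule: the 12 largest and 12 smallest log2 differences among genes called in both fits, averaging 100 counts or more and not overlapping between the groups, together with the leading genes of 28 function lists and 22 genes chosen for the treatment. Others, said to be so, were chosen after their values were seen. The counts of each list stand against the shares of all tested genes called, which were 20.9% higher and 20.2% lower with 7 libraries and 7.64% and 6.84% with 8. Each difference below is log2 of olaparib over MNA ± standard error from the 7-library fit. The adjusted p of the 8-library fit is called the p with MNA 2.

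Genes of tissue-resident macrophages, Cd5l and Siglec1 among them, were part of the 12 largest differences. Cd5l, a secreted scavenger protein of tissue macrophages (chr3:87357881-87371073, GRCm38), was read at 59.2, 57.5, 63.9 and 73.99 CPM in olaparib 1 to 4, at 0.985, 1.43 and 0.762 in MNA 1, 3 and 4 and at 6.43 in MNA 2. Its log2 difference was 5.90 ± 0.17 (adjusted p = 3.74e-08; p with MNA 2 = 0.00206), and DMSO stood between the treatments at 14.7 ± 5.55 CPM (SD, n = 4). Siglec1 (chr2:131069220-131086765), the sialic acid receptor CD169, held 42.02, 53.7, 62.5 and 59.5 CPM with olaparib against 1.60, 1.69 and 1.28 in MNA 1, 3 and 4. MNA 2, at 2.26 CPM, was still far below every olaparib library, so the difference of 5.15 ± 0.17 kept an adjusted p of 1.51e-05 with it. Siglec1 in DMSO was 6.08 ± 1.78 CPM, and thus nearer to MNA.

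Over the list of 19 tested resident macrophage genes, 16 were higher and 0 lower with olaparib (1 by DESeq2 and 1 at an unadjusted edgeR p under 0.05), with a median log2 difference of 1.74, beside 7.83e-05 for all tested genes. On the same test, with MNA 2 included 10 were higher and 0 lower (0 by DESeq2 and 0 at an unadjusted edgeR p under 0.05). Of the 16, 4 (Spic, Gata6, Cbr2 and P2ry12) passed the count minimum only through the olaparib libraries, and without them 12 of 15 were higher, with a median of 1.46. Cd93, a receptor for cell debris, belonged to the 12 largest differences at 4.10, and MNA 2 (25.5 CPM) lay between MNA 1, 3 and 4 (8.17, 1.93 and 2.09) and olaparib (87.7, 65.8, 66.2 and 56.98). Igf1, a growth factor made by macrophages and chosen after its values were seen, was 842, 885, 984 and 961 CPM with olaparib and 499.5, 456 and 343 in MNA 1, 3 and 4 (p with MNA 2 = 0.00442). Gata6, the transcription factor of peritoneal macrophages and likewise chosen, had 0 counts in MNA 1, 3 and 4, where olaparib libraries read 2.999, 2.79, 3.61 and 3.97 CPM, and passed the count minimum through olaparib alone. Against 3 counts in 1 MNA library, Gata6 was at least 27.1-fold higher with olaparib, but MNA 2 read 3.73 CPM and the call was lost with it (p with MNA 2 = 0.363). The DMSO libraries held 4.97 to 6.68 CPM of Gata6, above every olaparib library, so olaparib stood under the solvent level. In bulk RNA, more cells of a kind and more RNA per cell cannot be told apart.

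**Figure D3:**
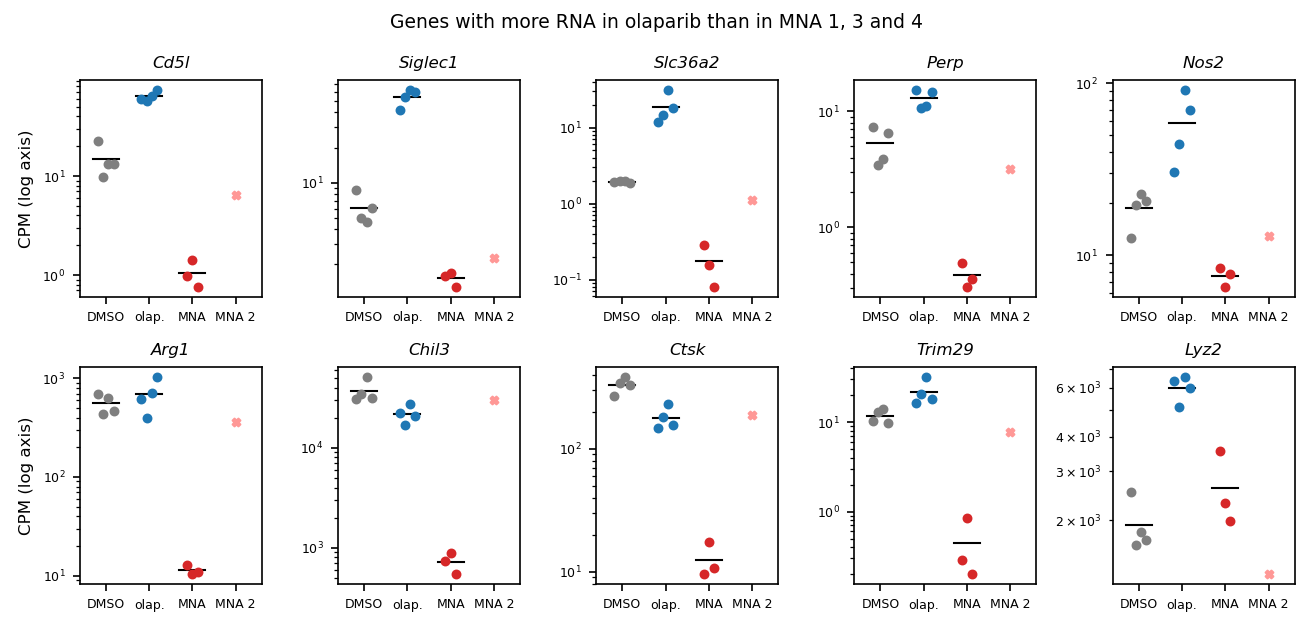
CPM on a log axis in each library for 10 genes with more RNA in olaparib than in MNA 1, 3 and 4. Points are libraries, lines are group means, and the cross is MNA 2, which lies far above MNA 1, 3 and 4 for Arg1, Chil3, Ctsk and Trim29 and close to them for Siglec1.

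The largest difference of the rule was that of Slc36a2, a proton-coupled amino acid transporter (chr11:55158470-55185077). It read 11.7, 14.4, 31.3 and 17.8 CPM in the olaparib libraries and 0.287, 0.154 and 0.0803 in MNA 1, 3 and 4, a log2 difference of 6.72 ± 0.51 (adjusted p = 3.74e-06; p with MNA 2 = 0.00139). Slc36a2 reached 10 counts in no MNA library of the 7, so it too passed through olaparib alone. All DMSO libraries lay near 1.94 CPM, between the treatments. Ceacam10, of the carcinoembryonic adhesion family, was 24.1, 24.8, 24.9 and 38.3 CPM with olaparib and 0.616, 0.308 and 0.682 in MNA 1, 3 and 4. The epithelial genes Trim29 and Perp stood 5.56 and 5.05 log2 units higher, and Trim29 had the highest p with MNA 2 of the 12 genes (adjusted p = 0.0483). Fgr, a Src-family kinase of myeloid cells, was 4.01 higher, and Slc6a4, the serotonin transporter, 4.04 higher. Dact2, an inhibitor of Wnt signalling, and Rtn4rl2, a receptor of the Nogo family, completed the 12 with 4.47 and 4.23, beside Gsta3, which is described with the antioxidant genes.

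Arginase 1 and other products of alternative activation were higher with olaparib than in MNA 1, 3 and 4, but these differences rested on leaving out MNA 2. Of 24 tested genes of this list, 14 were higher and 5 lower with olaparib, and with MNA 2 included 7 were higher and 3 lower. Arg1, which encodes arginase 1 (chr10:24915221-24927484), was 613, 399, 709.6 and 1028 CPM in the olaparib libraries and 12.9, 10.4 and 10.9 in MNA 1, 3 and 4, while MNA 2 read 359.6. The difference of 5.91 ± 0.32 had an adjusted p of 4.02e-07 without and 0.145 with MNA 2. DMSO held 556 ± 124 CPM, so Arg1 was near the solvent level with olaparib and far under it in MNA 1, 3 and 4. Chil3, a chitinase-like secreted protein that shares 41.5% of its 31-base words with other genes, stood at 22097, 17048, 27212 and 20974 CPM with olaparib and at 746, 882 and 546 in MNA 1, 3 and 4, against 30389 in MNA 2 (p with MNA 2 = 0.463). Mrc1, the mannose receptor, was 684, 467, 511 and 618 CPM with olaparib, 185, 133 and 128 in MNA 1, 3 and 4 and 520.0 in MNA 2 (p with MNA 2 = 0.0895). For Chil3 and Mrc1, MNA 2 stood inside or above the range of the olaparib libraries. DMSO held 36791 ± 9611 CPM of Chil3, and each DMSO library was above every olaparib library, so both treatments were under the solvent level. Mrc1 in DMSO was 680 ± 126 CPM and overlapped olaparib.

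Other genes of the list were called in both fits. Retnla, a resistin-like cytokine chosen after its values were seen, was 817, 877, 1867 and 749 CPM with olaparib and 346, 373 and 255 in MNA 1, 3 and 4 (p with MNA 2 = 0.0208). Ccl24, an eosinophil-attracting chemokine that IL4 induces and also chosen after its values were seen, went the other way, with 40.8, 46.2, 92.7 and 51.3 CPM with olaparib, 220.2, 202 and 186 in MNA 1, 3 and 4 and 367 in MNA 2 (log2 difference -1.82 ± 0.22, p with MNA 2 = 0.00371). Both treatments were below the DMSO level of Ccl24, 385 ± 89.2 CPM, and olaparib was the lower. Flt1, a VEGF receptor chosen in the same way, was 107, 121, 98.6 and 145 CPM with olaparib and 424, 496 and 630.5 in MNA 1, 3 and 4, with a p of 0.044 with MNA 2.

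The lysosomal protease gene Ctsk, best known from osteoclasts, was 147, 179, 233 and 156 CPM with olaparib, 9.56, 17.3 and 10.8 in MNA 1, 3 and 4 and 188 in MNA 2, a difference of 3.83 ± 0.22 (p with MNA 2 = 0.247). Ctsl, another cathepsin of which 28.2% of words are shared, was 1.97 higher and its call was lost as well (p with MNA 2 = 0.585). DMSO held 330 ± 47.4 CPM of Ctsk and 6114 ± 1650 of Ctsl, where olaparib averaged 179 and 3131. In both genes every DMSO library lay above every olaparib library. Cdh1, the adhesion protein E-cadherin that takes part in macrophage fusion, was called in both fits at 2.16 ± 0.11 (p with MNA 2 = 0.0442). Of 57 tested lysosomal and V-ATPase genes 19 were higher and 10 lower, and of 24 osteoclast and fusion genes 7 and 4, with list medians of 0.047 and 0.057. Of the lysosomal genes, with MNA 2 included 4 were higher and 2 lower, and of the osteoclast genes, with MNA 2 included 3 were higher and 0 lower (0 by DESeq2 and 0 at an unadjusted edgeR p under 0.05). Over all tested genes 20.2% were lower, and with MNA 2 included 7.64% were higher and 6.84% lower. The 10 and 4 lower genes, and the 4 and 2 lysosomal genes with MNA 2, are thus near or under the background.

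Nitric oxide synthase and the phagocyte oxidase, which make nitric oxide and superoxide, were not on 1 side. Nos2 (chr11:78920787-78960254), which encodes the inducible nitric oxide synthase, was 30.6, 44.1, 91.6 and 69.9 CPM with olaparib and 8.45, 6.55 and 7.79 in MNA 1, 3 and 4, with 12.9 in MNA 2 and 18.9 ± 4.43 in DMSO. The groups did not overlap with or without MNA 2, and the difference was 2.95 ± 0.34 (adjusted p = 6.33e-05; p with MNA 2 = 0.00242). Hvcn1, the proton channel that sustains the oxidative burst, was 1.20 ± 0.10 higher (p with MNA 2 = 0.00101), with 41.5% of its words shared with its neighbour Tctn1. Cybb, the membrane subunit of the oxidase and chosen after its values were seen, was 1051, 1143, 1250.4 and 1193 CPM with olaparib and 1669, 1596 and 1609 in MNA 1, 3 and 4, and with MNA 2 at 405 its adjusted p was 0.76. In all, 5 of 10 tested genes of this list were higher and 4 lower, and with MNA 2 included 4 were higher and 0 lower (1 by DESeq2 and 2 at an unadjusted edgeR p under 0.05).

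Several receptors and bridging proteins for dying cells were higher with olaparib. Of 45 tested phagocytosis and efferocytosis genes, 18 were higher and 8 lower (median 0.092), and with MNA 2 included 12 were higher and 2 lower. Mfge8, which bridges phosphatidylserine to integrins, was 725, 909, 1060.3 and 959 CPM with olaparib, 364, 365 and 355 in MNA 1, 3 and 4, 252 in MNA 2 and 289 ± 29.4 in DMSO. Mertk, a receptor kinase for apoptotic cells, read 31.3, 38.5, 42.9 and 36.8 CPM against 15.5, 20.5 and 14.9 (p with MNA 2 = 0.00152), and MNA and DMSO (16.8 ± 2.30) were close. Stab1, a scavenger receptor chosen after its values were seen, was 3.33 ± 0.31 higher. Scarb1, a lipoprotein receptor, was lower with olaparib (log2 difference -0.89, p with MNA 2 = 0.0453). C1qb, a subunit of complement C1q chosen after its values were seen, was 139, 177, 277 and 284 CPM with olaparib and 489, 606 and 674 in MNA 1, 3 and 4, and was not called with MNA 2 (adjusted p = 0.221).

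Cytokine genes split in both directions. Of 26 tested genes 11 were higher and 9 lower, and with MNA 2 included 6 were higher and 6 lower. Of the 11 higher genes 3 passed the count minimum through olaparib alone, and of the 9 lower ones 1 through MNA alone. Ccl6, a chemokine that IL4 induces in macrophages, was 1215, 1233, 1878 and 1599.7 CPM with olaparib, 295, 252 and 216 in MNA 1, 3 and 4 and 643 in MNA 2 (2.54 ± 0.17, p with MNA 2 = 0.00656). Il1a was 2.82, 2.32, 3.49 and 2.57 CPM against 0.205, 0.193 and 0.0401, and Tnf, the tumour necrosis factor gene, was 17.6, 11.8, 12.1 and 9.46 CPM against 23.5, 30.5 and 29.5, so that these inflammatory cytokines, both chosen after their values were seen, differed in opposite directions. Il1a passed the count minimum through olaparib alone. Both calls stood with MNA 2 (adjusted p = 0.0155 and 0.0125). Ccl3, a chemokine for monocytes and lymphocytes, was 12.7, 10.9, 8.53 and 9.67 CPM with olaparib and 49.6, 50.3 and 48.6 in MNA 1, 3 and 4 (-2.24 ± 0.12). Il1b was under 1 CPM in every library of both groups, and its difference of -1.06 ± 0.64 was not called (adjusted p = 0.208). Cxcl9, a chemokine gene that interferon-gamma induces and chosen after its values were seen, stayed at or under 3 counts in the olaparib libraries and was 1.44, 0.847 and 0.522 CPM in MNA 1, 3 and 4, at least 7.42-fold higher with MNA, the group through which alone it passed the minimum.

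Targets of p53, the factor that halts the cycle of cells with damaged DNA, were higher with olaparib in 23 of 40 tested genes and lower in 1 (median 0.34), and with MNA 2 included 15 were higher and 0 lower (0 by DESeq2 and 0 at an unadjusted edgeR p under 0.05). Perp, a membrane protein of p53-driven death, read 15.3, 10.7, 11.2 and 14.6 CPM with olaparib, 0.492, 0.308 and 0.361 in MNA 1, 3 and 4 and 3.16 in MNA 2 (p with MNA 2 = 0.0114). Phlda3, which restrains the kinase Akt, was 76.1, 80.8, 83.1 and 89.8 CPM against 25.8, 21.95 and 24.7, and MNA 2 (28.3) and DMSO (26.6 ± 4.65) were close to the other MNA libraries. Cdkn1a, the cycle inhibitor p21, was 562, 555, 539 and 572 CPM against 253, 238 and 234, with DMSO at 399 ± 19.5. Mdm2, which degrades p53, was 258, 259.8, 251 and 262 CPM against 179, 167 and 155 (0.63 ± 0.063, p with MNA 2 = 0.0138). Sulf2, a heparan sulfatase chosen after its values were seen, was 2.12 higher. The 1 lower gene of the list was Tap1, a peptide transporter of MHC class I, with 61.99 CPM on average with olaparib and 104 in MNA 1, 3 and 4.

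Among cycle regulators, of 20 tested genes 4 were higher and 6 lower, and with MNA 2 included 3 were higher and 2 lower. Of all tested genes 20.9% were higher and 20.2% lower, so the 4 of 20 higher ones are at the background. The D cyclins stood on opposite sides. Ccnd1 was 107, 95.01, 80.2 and 81.2 CPM with olaparib and 46.7, 35.01 and 41.4 in MNA 1, 3 and 4 (p with MNA 2 = 0.0325), with 22.3% of its words shared with its neighbour LTO1. Ccnd2, chosen after its values were seen, was 21.1, 16.8, 13.99 and 21.9 CPM against 49.3, 39.6 and 52.97, and its call was lost with MNA 2 (adjusted p = 0.155). Cdkn2a, the locus of the inhibitor p16 and of ARF, was 9.95, 6.55, 4.87 and 6.57 CPM with olaparib, 19.8, 26.4 and 30.1 in MNA 1, 3 and 4, 33.6 in MNA 2 and 24.1 ± 5.38 in DMSO, so that olaparib was the group apart (p with MNA 2 = 0.00156). E2f2, a factor of S-phase genes, was 11.2, 9.14, 8.95 and 14.7 CPM against 3.73, 1.62 and 3.01 (p with MNA 2 = 0.00596); both were chosen after their values were seen.

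Few genes of DNA replication and mitosis were called. For replication 5 of 44 were higher and 5 lower, and with MNA 2 included 2 were higher and 0 lower (0 by DESeq2 and 5 at an unadjusted edgeR p under 0.05). For mitosis 3 of 49 were higher and 2 lower, and with MNA 2 included 1 were higher and 0 lower (0 by DESeq2 and 0 at an unadjusted edgeR p under 0.05). Mki67, the proliferation antigen, was 28.6, 18.8, 19.1 and 39.1 CPM with olaparib and 42.1, 24.6 and 32.1 in MNA 1, 3 and 4, so the groups overlapped (adjusted p = 0.346). Cenpa, the centromere histone, differed by -0.73 ± 0.11 (p with MNA 2 = 0.501) and Cdca8, of the chromosome passenger complex, by 0.63 ± 0.15 (p with MNA 2 = 0.0243). The letters TTCCCGC, a core of E2F sites, were in 44.4% of the 36 replication genes with a RefSeq promoter and 9.94% of all, and TTTGAA, the cell cycle homology region, was in 73.2% of the 41 mitosis genes and 14.3% of all, both strands counted. The replication genes Rfc5 and Pold2 were lower with olaparib (log2 differences -0.61 and -0.66) and not called with MNA 2 (adjusted p = 0.137 and 0.137). Among 42 repair genes 5 were higher and 5 lower, and with MNA 2 included 2 were higher and 1 lower. Brca1, of homologous recombination, read 12.6, 12.05, 11.4 and 13.9 CPM against 6.89, 4.74 and 5.02, and Chek2, the checkpoint kinase, 21.2, 20.8, 20.2 and 23.9 against 13.99, 12.02 and 14.4, with MNA 2 near the other MNA libraries in both (6.71 and 12.6).

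The RNA of the targets of olaparib differed little between the treatments. Parp1 was 73.1, 69.8, 70.998 and 70.7 CPM with olaparib and 84.01, 75.4 and 79.8 in MNA 1, 3 and 4 (-0.17 ± 0.057, adjusted p = 0.0381), which did not pass with the replicate number as a block (0.0647) or with MNA 2 (0.456), nor without any 1 of olaparib 2, 3 and 4 and MNA 1 and 4. Parp2 was 22.1, 20.8, 20.6 and 20.8 CPM against 18.7, 18.7 and 20.5 and was not called (adjusted p = 0.204). Nampt, the salvage enzyme that turns nicotinamide back toward NAD, overlapped between groups (157, 169, 196 and 172 against 149.5, 167 and 156, adjusted p = 0.154). Of 39 tested genes of the PARP family and NAD metabolism, 6 were higher and 9 lower, and with MNA 2 included 3 were higher and 1 lower, beside shares of 20.9% and 20.2%, and 7.64% and 6.84% with MNA 2, over all tested genes. Parp8, a mono-ADP-ribosyltransferase, was 5.12, 5.53, 4.96 and 5.98 CPM against 20.1, 18.8 and 20.6 and was lower with olaparib in both fits (p with MNA 2 = 0.0119). Parp3, which acts at DNA breaks, had a log2 difference of -0.97 and just missed the threshold with MNA 2 (adjusted p = 0.0546). Bst1, which hydrolyses NAD at the cell surface and was chosen after its values were seen, was 3.37 ± 0.33 higher (p with MNA 2 = 0.00222).

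Genes of the NRF2 programme, which defends cells against oxidants, were higher in 24 of 44 and lower in 9, and with MNA 2 included 13 were higher and 0 lower (0 by DESeq2 and 0 at an unadjusted edgeR p under 0.05). Gsta3, a glutathione transferase, was 11.3, 11.7, 11.5 and 14.3 CPM with olaparib, 0.575, 0.424 and 0.482 in MNA 1, 3 and 4 and 1.69 in MNA 2 (4.62 ± 0.18, p with MNA 2 = 0.000923). Nqo1, a quinone reductase, was 27.8, 22.1, 21.9 and 25.5 CPM against 11.5, 9.24 and 6.90, both above DMSO (4.09 ± 0.944). Hmox1, the haem oxygenase, stood at 629.7, 568, 653 and 609.8 CPM against 499, 464 and 368. Me1, the malic enzyme that supplies NADPH, was 2.33 ± 0.12 higher with 36.9% of its words shared with other genes. Prdx1, a peroxiredoxin, was among the lower members, with means of 4637 CPM with olaparib, 7013 in MNA 1, 3 and 4 and 1712 in DMSO, and was chosen after its values were seen. The core TGACNNNGC of the antioxidant response element, on either strand, was in 31.6% of the 38 list genes with a RefSeq promoter and in 17.1% of all 9763 tested genes with one.

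Nuclear genes of oxidative phosphorylation were higher with olaparib in 47 of 74 and lower in 1, with a median log2 difference of 0.31, and with MNA 2 included 32 were higher and 0 lower (0 by DESeq2 and 1 at an unadjusted edgeR p under 0.05). Sdhb, a subunit of complex II, was 136, 139, 152 and 154 CPM against 92.6, 94.7 and 96.6 (0.62 ± 0.059, p with MNA 2 = 0.01), and the groups did not overlap. Atp5o, of the ATP synthase, was 0.68 ± 0.06 higher, although 49.6% of its words occur in other genes. Of the 12 tested genes of the mitochondrial genome 0 were called by edgeR in either direction, where DESeq2 called 1 higher and an unadjusted edgeR p under 0.05 was met by 1 higher and 1 lower gene. Their leading members, mt-Nd6 of complex I and mt-Co3 of complex IV, stood at 0.30 (adjusted p = 0.0749, and 0.0182 with the replicate block) and -0.27 (adjusted p = 0.0862), and 99.9% of the words of mt-Co3 are also in other listed genes.

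Cytosolic ribosomal protein genes were higher in 49 of 75 and lower in 1, with a median of 0.31, while with MNA 2 included 8 were higher and 1 lower. Rps19, of the small subunit, was 331, 341, 337 and 343 CPM with olaparib and 161, 214 and 218 in MNA 1, 3 and 4, and stood at 303 in MNA 2 and 325 ± 30.8 in DMSO (0.78 ± 0.093, p with MNA 2 = 0.0435). Of 46 genes that assemble the ribosome 5 were higher and 8 lower, and with MNA 2 included 0 were higher (0 by DESeq2 and 1 at an unadjusted edgeR p under 0.05) and 5 lower. Mybbp1a, a nucleolar protein, was 103, 99.5, 103 and 90.5 CPM against 142, 141 and 139 and lower in both fits, and Wdr12, of the large subunit's precursor, was 0.41 ± 0.084 higher (p with MNA 2 = 0.114). Of 58 splicing genes 5 were higher and 11 lower, and with MNA 2 included 0 were higher (1 by DESeq2 and 1 at an unadjusted edgeR p under 0.05) and 8 lower. Of these RNA-binding proteins, Hnrnpm was lower with olaparib also with MNA 2 (-0.38 ± 0.051, p with MNA 2 = 0.00317), whereas the call of Hnrnpl, at -0.39, was lost (0.0645). Over all tested genes 20.2% were lower in the 7-library fit and 6.84% with MNA 2. The 8 of 46 assembly genes and the 11 of 58 splicing genes lower in the 7-library fit are thus near the background.

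**Figure D4:**
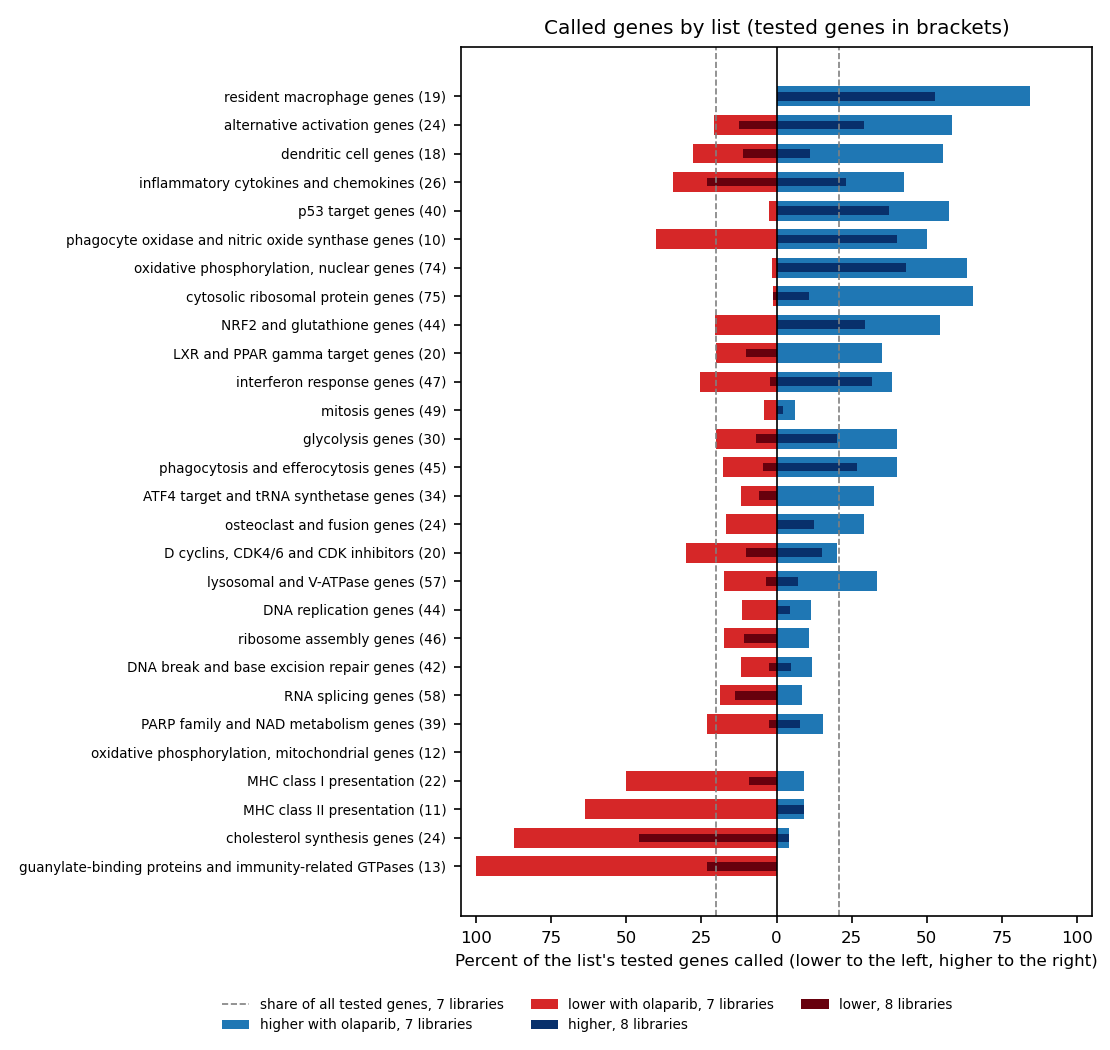
For each of 28 function lists, wide bars give the percent of tested genes called higher (right, blue) or lower (left, red) with olaparib in the 7-library fit, and narrow dark bars the same in the 8-library fit; dashed lines mark 20.9% and 20.2%, the shares of all tested genes. All 13 tested guanylate-binding and immunity-related GTPase genes are lower in the 7-library fit and 3 in the 8-library fit.

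On the lower side stood the guanylate-binding proteins (GBPs) and immunity-related GTPases (IRGs), which attack the vacuoles of intracellular pathogens. All 13 tested members were lower with olaparib, with a median log2 difference of -2.78, while with MNA 2 included 3 passed the test in edgeR and 10 in DESeq2. Gbp2b (chr3:142594847-142619179) was 34.5, 44.5, 64.3 and 56.04 CPM with olaparib, 531, 479.8 and 554 in MNA 1, 3 and 4, 36.98 in MNA 2 and 43.2 ± 8.02 in DMSO. Its difference was -3.39 ± 0.17 (adjusted p = 2.53e-07; p with MNA 2 = 0.0226). The olaparib and DMSO libraries thus overlapped, with MNA 2 among them, and MNA 1, 3 and 4 lay far above. Gbp2 (chr3:142620602-142638008) gave the same picture at 36.3, 40.9, 53.1 and 49.6 CPM against 270.0, 306 and 355 (-2.79 ± 0.13, p with MNA 2 = 0.0239), and so did Gbp7 (chr3:142530342-142550149) at 8.89, 8.59, 11.7 and 10.2 against 73.6, 89.4 and 87.3 (-3.08 ± 0.11, p with MNA 2 = 0.0221), of which 14.7% of words are shared. Of members chosen after their values were seen, Irgm1 (chr11:48861968-48871683) was 43.04, 57.7, 68.6 and 67.5 CPM against 121, 169.8 and 215, Iigp1 0.600, 0.942, 1.85 and 5.18 against 12.4, 14.6 and 29.1 and Gbp4 0.318, 1.14, 1.43 and 2.43 against 18.2, 11.1 and 19.7, and their calls were lost with MNA 2 (adjusted p = 0.127, 0.141 and 0.0761).

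Since these genes differed together, promoters of 4 of them were read from RefSeq (GRCm38.p6, 250 bases before to 50 after the start site, 300 bases in all, printed 5′ to 3′ on the gene's strand). Capitals mark matches of GAAANNGAA, the core of the interferon-stimulated response element, on either strand. The windows are chr3:142594597-142594896 (plus strand), chr3:142620413-142620712 (plus strand), chr3:142530086-142530385 (plus strand) and chr11:48871371-48871670 (minus strand).
Gbp2b: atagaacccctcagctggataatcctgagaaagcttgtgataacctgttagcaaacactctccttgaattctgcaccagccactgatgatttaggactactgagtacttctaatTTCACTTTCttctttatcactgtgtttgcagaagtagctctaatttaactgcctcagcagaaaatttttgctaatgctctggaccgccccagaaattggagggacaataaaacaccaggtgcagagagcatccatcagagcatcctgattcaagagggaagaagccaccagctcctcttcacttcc
Gbp2: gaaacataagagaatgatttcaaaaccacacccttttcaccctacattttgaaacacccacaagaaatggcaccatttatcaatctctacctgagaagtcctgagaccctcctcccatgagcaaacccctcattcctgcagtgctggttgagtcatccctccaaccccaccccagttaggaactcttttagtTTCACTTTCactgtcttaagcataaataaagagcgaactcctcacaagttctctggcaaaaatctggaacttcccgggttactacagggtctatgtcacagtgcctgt
Gbp7: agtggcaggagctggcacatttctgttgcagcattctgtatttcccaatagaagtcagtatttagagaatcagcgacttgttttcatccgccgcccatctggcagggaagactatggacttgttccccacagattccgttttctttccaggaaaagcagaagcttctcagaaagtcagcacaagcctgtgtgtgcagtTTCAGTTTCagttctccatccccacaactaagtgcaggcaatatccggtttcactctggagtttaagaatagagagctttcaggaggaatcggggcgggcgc
Irgm1: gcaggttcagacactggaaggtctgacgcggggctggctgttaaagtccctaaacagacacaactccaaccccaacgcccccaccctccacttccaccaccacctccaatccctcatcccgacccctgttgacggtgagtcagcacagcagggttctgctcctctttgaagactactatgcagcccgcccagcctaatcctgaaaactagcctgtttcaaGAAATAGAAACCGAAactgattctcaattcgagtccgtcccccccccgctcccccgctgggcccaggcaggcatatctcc
The first match lay 136 bases upstream of the start site in Gbp2b, 58 in Gbp2, 52 in Gbp7 and 30 in Irgm1, where 2 matches overlap. The core was found in 8 of the 8 tested GBP and IRG genes with a promoter in the table, and in 8.80% of all 9763 tested genes with one. TTCNNNGAA, the core of the gamma-activated site, was in 4 of the 8 and in 8.26% of all. The use of both motifs for this list was chosen after its values were seen, and a match is a description of letters, not a site shown to be bound.

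Interferon response genes as a wider list went both ways. Of 47 tested, 18 were higher and 12 lower with olaparib, and with MNA 2 included 15 were higher and 1 lower. On the higher side stood antiviral genes: Oasl1 read 10.3, 16.8, 16.2 and 16.9 CPM with olaparib and 0.205, 0.385 and 0.201 in MNA 1, 3 and 4, but 6.54 in MNA 2 and 6.34 ± 1.54 in DMSO (p with MNA 2 = 0.0667). Irf7, the regulator of type I interferon genes, was 11.5, 19.4, 21.4 and 17.3 CPM against 3.04, 6.74 and 5.90, with MNA 2 (4.42) and DMSO (6.29 ± 1.40) close to MNA (1.73 ± 0.26, p with MNA 2 = 0.00445). Chosen after their values were seen, Oas2 was 3.15 and the GTPase gene Mx1 1.43 higher, also with MNA 2 (adjusted p = 0.00161 and 0.0455). On the lower side, Ifi203 was 51.4, 56.1, 62.3 and 56.2 CPM against 95.5, 98.9 and 94.7 and stayed called with MNA 2 (adjusted p = 0.00332), whereas Ifit2, chosen in the same way, did not (-1.55 ± 0.23, p with MNA 2 = 0.145). Ifi203 shares 21.9% of its words with other genes. Isg15 overlapped between the groups (adjusted p = 0.222). Socs1, the inhibitor of JAK kinases chosen after its values were seen, was 31.999, 20.997, 18.7 and 34.1 CPM with olaparib, 71.8, 60.2 and 77.3 in MNA 1, 3 and 4 and 22.1 in MNA 2 (-1.39 ± 0.19, p with MNA 2 = 0.0717). GAAANNGAA was in 55.6% of the 36 genes of this list with a promoter.

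MHC class II genes, which present antigen to helper T cells, were lower in 7 of 11 and higher in 1 (median -1.06), and with MNA 2 included 1 were higher and 0 lower (1 by DESeq2 and 3 at an unadjusted edgeR p under 0.05). Ciita, their master regulator, was 10.8, 10.1, 17.3 and 14.02 CPM with olaparib, 87.8, 51.3 and 48.2 in MNA 1, 3 and 4, 5.06 in MNA 2 and 6.81 ± 1.55 in DMSO (-2.26 ± 0.23, p with MNA 2 = 0.0823). The chain gene H2-Aa was 56.7, 46.3, 60.03 and 73.6 CPM against 209, 171 and 181, with MNA 2 at 14.04 (p with MNA 2 = 0.192), and H2-Ab1 was 114, 84.9, 123 and 159 against 571, 342 and 371, with MNA 2 at 59.6 (p with MNA 2 = 0.0965). H2-DMa, which loads peptides, was -1.96 ± 0.10 (p with MNA 2 = 0.104). For Ciita, H2-Aa and H2-DMa the olaparib mean was above DMSO and the mean of MNA 1, 3 and 4 farther above it. The gene higher with olaparib was Ctss, the cathepsin that trims the invariant chain, with means of 7741 and 5117 CPM. Cd86, a costimulatory ligand, was 3.28, 2.71, 2.98 and 4.49 CPM against 12.1, 8.67 and 7.46 and narrowly missed the threshold with MNA 2 (adjusted p = 0.0534).

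In the class I pathway 11 of 22 genes were lower and 2 higher, and with MNA 2 included 0 were higher (0 by DESeq2 and 1 at an unadjusted edgeR p under 0.05) and 2 lower. Erap1, which trims peptides, was 81.4, 92.1, 97.8 and 96.5 CPM with olaparib, 154, 161 and 168 in MNA 1, 3 and 4 and 125 in MNA 2 (p with MNA 2 = 0.00317), and DMSO lay between at 120.5 ± 13.3. Tapbp, the loading chaperone tapasin of which 26.9% of words are shared, was -1.04 ± 0.088 and just short of the threshold with MNA 2 (adjusted p = 0.051). Psmb9, an immunoproteasome subunit chosen after its values were seen, differed by -1.06 (p with MNA 2 = 0.19). The higher genes were the non-classical H2-Q6 and H2-Q7, at 2.12 and 1.67, which share 51.8% and 39.2% of their words with near copies, so their reads cannot be assigned with certainty (p with MNA 2 = 0.144 and 0.18).

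**Figure D5:**
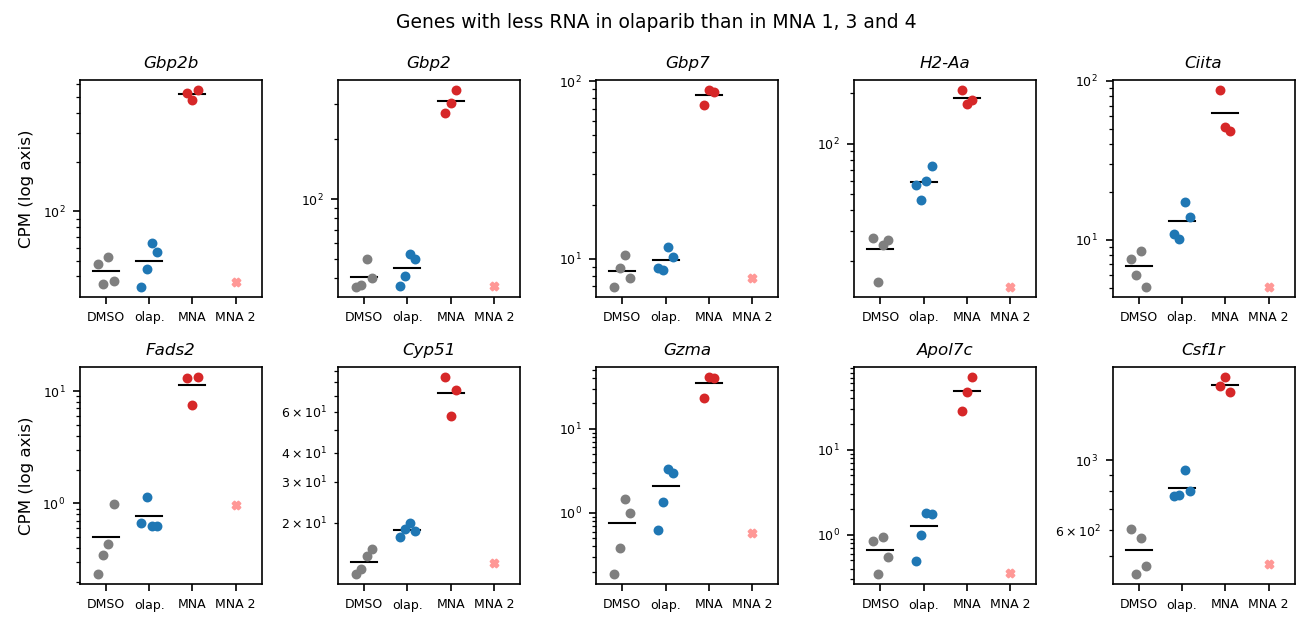
CPM on a log axis in each library for 10 genes with less RNA in olaparib than in MNA 1, 3 and 4. Points are libraries, lines are group means and the cross is MNA 2, which lies inside or just under the range of the DMSO libraries in all 10 panels.

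Enzymes of cholesterol synthesis were lower with olaparib than in MNA 1, 3 and 4 as a group, and olaparib was close to DMSO. The list summed to 647 to 787 CPM with olaparib, 580 to 645 in DMSO and 1258 to 1531 in MNA 1, 3 and 4. Of 24 tested genes, 21 were lower and 1 higher with olaparib (median -1.15), and with MNA 2 included 1 were higher and 11 lower. Sqle, squalene epoxidase, was 33.2, 35.7, 35.8 and 31.2 CPM against 90.4, 80.4 and 91.6, with MNA 2 at 43.2 still above the olaparib libraries (-1.37 ± 0.071, adjusted p = 3.64e-07; p with MNA 2 = 0.00961). Sqle in DMSO was 37.1 ± 2.19 CPM and overlapped olaparib.

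Further genes of the list were chosen after their values were seen. Cyp51, the sterol demethylase, was 17.5, 18.8, 19.96 and 18.4 CPM with olaparib, 84.3, 57.3 and 74.2 in MNA 1, 3 and 4 and 13.6 ± 1.55 in DMSO. Its log2 difference was -1.95 and that of Idi1, the isopentenyl isomerase of which 27.1% of words are shared, -2.35, both also called with MNA 2 (adjusted p = 0.0442 and 0.0489). The 1 higher gene was Dhcr7, which works at the end of the pathway and was 76.3, 104, 122 and 92.9 CPM with olaparib against 46.3, 44.02 and 46.3 (1.11 ± 0.13, p with MNA 2 = 0.0133). Fads2, the desaturase of polyunsaturated fatty acids, was also among the 12 smallest differences at -3.88, with 0.670, 1.14, 0.630 and 0.626 CPM against 13.2, 7.47 and 13.3.

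The promoter of Hmgcs1, the synthase at the head of the pathway (chr13:119690101-119690400, plus strand, means 78.2 and 149 CPM), is shown as the 1 promoter of 17 tested list genes with the core TCACNCCAC of the sterol regulatory element. Capitals mark that core and the CCAAT box, each searched on both strands, without overlap between the motifs.
Hmgcs1: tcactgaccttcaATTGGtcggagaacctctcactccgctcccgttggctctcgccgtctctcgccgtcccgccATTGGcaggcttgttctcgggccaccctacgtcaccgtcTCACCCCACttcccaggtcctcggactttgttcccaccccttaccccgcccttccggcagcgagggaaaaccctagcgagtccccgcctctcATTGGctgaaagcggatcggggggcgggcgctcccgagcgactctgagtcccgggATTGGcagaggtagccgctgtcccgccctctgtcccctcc
The sterol core began 137 bases upstream of the start site and occurred in 1.34% of all tested genes with a promoter. The CCAAT box was in 16 of the 17 genes (94.1%) and in 42.9% of all. Both motifs were picked after the values of the list were seen.

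Targets of LXR and PPAR gamma, receptors that sense sterols and fatty acids, were higher in 7 of 20 and lower in 4, and with MNA 2 included 0 were higher (1 by DESeq2 and 2 at an unadjusted edgeR p under 0.05) and 2 lower. Nr1h3, which encodes LXR alpha, was 25.7, 28.8, 30.5 and 27.3 CPM with olaparib, 10.96, 11.1 and 8.47 in MNA 1, 3 and 4 and 32.1 in MNA 2, and Fabp4, a fatty acid carrier, was 18.03, 17.5, 27.3 and 19.8 CPM with olaparib, 6.11, 5.89 and 5.34 in MNA 1, 3 and 4 and 52.3 in MNA 2. Both were highest in DMSO, at 41.1 ± 4.71 and 72.4 ± 20.9 CPM, and lost their call with MNA 2 (adjusted p = 0.169 and 0.86). Apoe, the apolipoprotein chosen after its values were seen, varied widely among the olaparib libraries (20.9, 53.1, 144 and 56.4 CPM) but stayed above MNA 1, 3 and 4 (6.65, 13.5 and 11.2; p with MNA 2 = 0.0657). Of 34 ATF4 targets and tRNA synthetases 11 were higher and 4 lower, and with MNA 2 included 0 were higher (0 by DESeq2 and 2 at an unadjusted edgeR p under 0.05) and 2 lower, the list median turning from 0.071 to -0.25. Of the 11 higher genes 1 passed the count minimum through olaparib alone. Nupr1, a stress-induced chromatin protein, was 2.81 ± 0.24 without and 0.21 with MNA 2 (adjusted p = 0.913), while Wars, the tryptophan tRNA synthetase, was lower in both fits (-0.79 ± 0.069, p with MNA 2 = 0.000563).

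Glycolysis genes were higher in 12 of 30 and lower in 6, and with MNA 2 included 6 were higher and 2 lower. Pfkfb4, a kinase that sets the rate of glycolysis, was 118, 106, 109.6 and 118 CPM against 51.5, 41.3 and 45.9 (1.29 ± 0.082, p with MNA 2 = 0.00663). Aldoc, aldolase C, was the opposite case, with 3.49, 2.86, 4.58 and 4.42 CPM with olaparib and 27.6, 27.9 and 33.5 in MNA 1, 3 and 4 (-2.95 ± 0.15, p with MNA 2 = 0.0478). Among 18 dendritic cell genes 10 were higher and 5 lower, and with MNA 2 included 2 were higher and 2 lower. Over all tested genes these shares were 20.9% and 20.2%, and 7.64% and 6.84% with MNA 2, so that the 2 and 2 of 18 are near the background. Of the 10 higher genes, Sirpb1a passed the count minimum through olaparib alone. Cd83 and Ccr7, which mark maturing dendritic cells, were on the lower side: Cd83 was 13.6, 14.2, 18.3 and 18.1 CPM against 46.5, 45.4 and 40.5 and held with MNA 2 (adjusted p = 0.0442), and Ccr7 was 0.706, 1.49, 1.60 and 2.02 against 10.6, 5.58 and 5.58 and did not (0.106).

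Granzyme genes, products of cytotoxic lymphocytes, were among the 12 smallest differences. Gzma (chr13:113093825-113100981) was 0.635, 1.33, 3.36 and 2.96 CPM with olaparib, 22.98, 41.1 and 40.1 in MNA 1, 3 and 4, 0.575 in MNA 2 and 0.749 ± 0.575 in DMSO (-4.08 ± 0.37, p with MNA 2 = 0.0424). Gzmb (chr14:56258838-56262260) was 0.529, 1.33, 5.17 and 4.07 CPM against 30.7, 43.3 and 51.2 (-3.93 ± 0.45, p with MNA 2 = 0.0493). Il2rb, the shared chain of the IL2 and IL15 receptors, was 0.917, 1.69, 3.07 and 3.41 CPM against 20.8, 19.2 and 21.99. The list of T and NK cell markers summed to 13.97 to 26.4 CPM with olaparib, 38.6 to 54.9 in MNA 1, 3 and 4, 5.12 to 8.94 in DMSO and 7.58 in MNA 2. Of its 14 genes 10 were tested, of which 1 was higher and 4 were lower, and with MNA 2 included 1 and 3. The T cell receptor component Cd3e was at 0.369 and 0.600 CPM on average and Trbc2 at 0.304 and 0.399, and neither was called. The perforin gene Prf1 was 0.106, 0.157, 0.798 and 0.0348 CPM against 3.86, 4.89 and 4.90, and Nkg7 0.141, 0.118, 0.0840 and 0.487 against 1.97, 1.96 and 2.21, with a p with MNA 2 of 0.0442 and 0.0617. The NK receptor gene Klrb1c went the other way, 10.5, 12.5, 14.1 and 15.9 CPM with olaparib against 2.09, 1.43 and 0.883 (p with MNA 2 = 0.00042), with 21.2% of its words shared. Prf1, Nkg7, Klrb1c and the other single marker genes named here were chosen after their values were seen. The part of T and NK cells in these differences was not tested.

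Markers of other cells also differed. Of 9 B cell markers 5 were tested and 4 were lower with olaparib, while with MNA 2 included 0 were higher (0 by DESeq2 and 0 at an unadjusted edgeR p under 0.05) and 0 lower (1 by DESeq2 and 1 at an unadjusted edgeR p under 0.05). The B cell list summed to 23.7 to 26.5 CPM in MNA 1, 3 and 4, 3.88 to 11.2 with olaparib and 1.88 to 4.48 in DMSO. A large part of this was the immunoglobulin gene Ighm, at 17.9, 16.2 and 10.996 CPM in MNA 1, 3 and 4 and 2.43, 3.85, 6.55 and 3.93 with olaparib (p with MNA 2 = 0.122). Igkc, another immunoglobulin gene, ranged from 1.56 to 9.39 CPM in MNA 1, 3 and 4 and from 0.106 to 4.35 with olaparib. Eosinophil markers summed to 122 to 382 CPM with olaparib, 54.2 to 73.99 in MNA 1, 3 and 4 and 35.2 to 58.3 in DMSO, and the 3 of 9 that were tested were higher with olaparib in both fits, of which Ear6 passed the count minimum through olaparib alone. Siglecf was 30.4, 45.4, 58.1 and 51.4 CPM with olaparib against 9.89, 7.82 and 6.82, and the ribonuclease gene Ear2, of which 60.5% of words are in related genes, was 90.6, 148, 323 and 161 against 63.9, 48.1 and 47.1. The granule protein genes Epx, Prg2 and Prg3, which define eosinophils, had 0 counts in every olaparib library.

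Neutrophil markers summed to 68.02 to 81.7 CPM with olaparib, 28.8 to 94.2 in MNA 1, 3 and 4 and 12.8 to 31.3 in DMSO, and of 6 tested of 14 listed, 2 were higher and 3 lower, and with MNA 2 included 1 and 2. Most of the olaparib sum was Mmp8, a granule collagenase, at 69.5, 65.8, 55.03 and 68.2 CPM with olaparib and 17.4, 16.3 and 14.4 in MNA 1, 3 and 4 (p with MNA 2 = 0.00592). Csf3r, the G-CSF receptor, was also higher, at 9.10, 6.91, 9.58 and 8.56 CPM against 5.87, 6.70 and 4.86 (p with MNA 2 = 0.0975). The granule gene S100a9 stayed at or under 3 counts in the olaparib libraries and was 1.11, 2.70 and 20.7 CPM in MNA 1, 3 and 4, and Ngp was likewise at or under 3 counts with olaparib and 1.72, 3.39 and 15.01 CPM in MNA 1, 3 and 4. Both passed the count minimum through MNA alone, and MNA 4 was far above the other MNA libraries in both. Of 13 stromal and endothelial markers, which summed to 10.5 to 15.2 CPM with olaparib and 4.01 to 6.10 in MNA 1, 3 and 4, 5 of 6 tested were higher and 1 lower, while with MNA 2 included 2 were higher and 0 lower (0 by DESeq2 and 0 at an unadjusted edgeR p under 0.05). Of the 5, Dcn and Cdh5 passed the count minimum through olaparib alone. Erythroid and megakaryocyte markers summed to 3.38 to 4.77 CPM against 2.85 to 59.9, the highest value being that of MNA 4, and 1 of 3 tested was higher, while with MNA 2 included 0 were higher (1 by DESeq2 and 2 at an unadjusted edgeR p under 0.05) and 0 lower (0 by DESeq2 and 0 at an unadjusted edgeR p under 0.05). Basophil and mast cell markers summed to 6.61 to 10.1 CPM against 6.34 to 8.62, and the 1 tested, Gata2, was not called by edgeR (0.54 ± 0.21, adjusted p = 0.058; p with MNA 2 = 0.191) but was called higher with the replicate block (0.0278) and by DESeq2 (0.0325). The part of any of these cells in the differences between the treatments was not tested.

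All 13 tested macrophage markers had counts in every library. A large part of their sum with olaparib was Lyz2 alone. These markers summed to 10890.4 to 12619 CPM with olaparib, 7952 to 9802 in MNA 1, 3 and 4 and 6037 to 7259 in DMSO. Of these, 7 were higher and 4 lower, and with MNA 2 included 5 were higher and 0 lower (2 by DESeq2 and 2 at an unadjusted edgeR p under 0.05). Lyz2, the lysozyme gene of which 32.8% of words are shared with other genes, was 6356, 5108, 6551 and 5991 CPM with olaparib against 3539.8, 2305 and 1985 (1.20 ± 0.18, p with MNA 2 = 0.0137), and Itgam, the integrin CD11b with 68.3% of words in an overlapping gene, was 0.97 ± 0.12 higher. Csf1r, the receptor for MCSF, was 771, 775, 930.2 and 801 CPM with olaparib, 1715, 1834 and 1645 in MNA 1, 3 and 4 and 468 in MNA 2 (-1.08 ± 0.077, p with MNA 2 = 0.162). All were chosen after their values were seen. Gpnmb, a glycoprotein of lipid-laden macrophages, was 15325, 16129, 17057 and 15051 CPM with olaparib against 12870.1, 14873 and 13121 (adjusted p = 0.0607, and 0.0316 with the replicate block).

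The remaining genes of the 12 smallest differences were Apol7c, Gm8221, Serpina3g and Tmem176b. Apol7c, an apolipoprotein L gene (chr15:77524852-77533316), was 0.494, 0.981, 1.81 and 1.74 CPM with olaparib, 28.2, 47.6 and 71.2 in MNA 1, 3 and 4 and 0.359 in MNA 2 (-5.29 ± 0.37, p with MNA 2 = 0.0249). Gm8221 had 0 to 2 counts in the olaparib libraries and 6.32, 11.5 and 19.6 CPM in MNA 1, 3 and 4, at least 99-fold higher with MNA against 3 counts in 1 olaparib library. It passed the count minimum through MNA alone. Gm8221 shares 65.0% of its words with other genes, 47.3% with Apol7c, so reads of these copies cannot be told apart with certainty. Serpina3g, a protease inhibitor of which 28.4% of words are shared, was 0.741, 1.73, 2.39 and 2.71 CPM against 14.2, 21.7 and 20.7. Tmem176b, a membrane channel protein, was 0.459, 0.589, 1.26 and 1.22 against 10.8, 7.16 and 6.94. In each of these 4 genes MNA 2 lay with the DMSO libraries, as the plot of lower genes shows for Apol7c.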

How the data were processed

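The authors deposited 1 table of raw read counts per gene for each of the 12 cultures (Illumina Stranded mRNA kit), with no normalization. The submitters' processing notes name STAR 2.5.2b, DESeq2 and R 3.6.0 with the GRCm38.p5 build, and which of STAR's strand columns was kept is not given in the sources used here. Groups came from the sample labels, and 0 columns of other samples were present. Of 35275 genes, 34490 were named through GENCODE M21 (GRCm38), and 13428 had 0 counts in every library.

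Olaparib 1 to 4 were compared with MNA 1, 3 and 4, and again with all 4 MNA libraries, by edgeR 4.0.16 (TMM scaling, quasi-likelihood F test, Benjamini-Hochberg adjustment, R 4.3.3) on genes with 10 or more counts in at least 3 of the 7 libraries. The 7- and 8-library fits used the same 12871 genes. CPM are scaled by TMM over all 12 libraries, with a prior count of 2 on the log2 scale. A bound against a group at or under 3 counts per library was set at 3 counts in 1 library, and such limits cover counting error only. The fits were also run on simulated counts in which all genes shared the same dispersion, unlike the data, and no statement here rests on that run. The members, gene lists and tests were chosen with earlier results of these data known. Genes were named as follows: the 12 largest and 12 smallest differences among genes called in both fits, averaging 100 counts or more and not overlapping between the groups; the 2 smallest p of each of 28 function lists; 22 fixed genes, of which Nnmt and Cxcl10 did not pass the count minimum; and further genes chosen after their values were seen. Some genes named by this rule are not reported here. The share of each gene's 31-base transcript words found in other genes was computed from GENCODE transcripts. It passed 10% in 30 of 133 named genes and is given for part of them.

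Alternatives were DESeq2 1.42.0, other scalings, other filters, a replicate block, DMSO libraries in the fit, stricter thresholds and leaving out each library. Libraries of the same replicate number were more alike across the treatments. The deviations of same-numbered olaparib and MNA libraries from their group means correlated across genes at 0.205, 0.151 and 0.353 for numbers 1, 3 and 4, above every pair of unlike numbers. What the replicate numbers stand for is not given in the sources used here. The p-values and standard errors above leave this likeness out unless the replicate block is named.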

Additional observations from a re-analysis of the deposited data

Results flagged for a closer look

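In 11 of 266 groups of 4 libraries tested, 1 library stood apart from the other 3 by Dixon's criterion, where chance gives about 1 in 20. Groups of 3 MNA libraries were not tested. The 11 include both Cxcl9 groups, where the other 3 libraries tied at 0, so any count above 0 met the criterion. These were 1 count in olaparib 4 and 3 counts in DMSO 3. Among the olaparib libraries, olaparib 4 was highest for Ceacam10 (38.3 CPM, the others 24.1 to 24.9), for Gsta3 (14.3 CPM, the others 11.3 to 11.7) and for Cxcl9 (0.0348 CPM, the others at 0). Olaparib 2 was highest for Fads2 (1.14 CPM, the others 0.626 to 0.670). Olaparib 1 was lowest for Oasl1 (10.3 CPM, the others 16.2 to 16.9) and highest for Parp2 (22.1 CPM, the others 20.6 to 20.8). Among the DMSO libraries, DMSO 1 was highest for Pfkfb4 (106 CPM, the others 83.2 to 86.4) and Mybbp1a (117 CPM, the others 109.9 to 111), DMSO 2 lowest for H2-Aa (14.9 CPM, the others 24.9 to 27.5), DMSO 3 highest for Cxcl9 (0.101 CPM, the others at 0) and DMSO 4 lowest for Mertk (13.4 CPM, the others 17.4 to 18.3).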

How the results depend on the processing

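Without MNA 2, 2687 genes were higher and 2602 lower with olaparib, and 983 and 881 with it. In the fit of all 12 libraries 1419 were higher and 1438 lower. Over the 7 libraries, an adjusted p under 0.01 left 1721 lower genes, and a difference of at least 2-fold 937 higher and 426 lower. Leaving out 1 library at a time gave 2225 to 2645 higher and 2141 to 2575 lower genes. Over the 8 libraries, DESeq2 called 1347 lower genes, the replicate block 449, an adjusted p under 0.01 left 357 higher and 155 lower, and at least 2-fold 475 and 148. Leaving out 1 of the 8 gave 502 to 2687 higher and 276 to 2602 lower genes: 640 and 334 without olaparib 1, 535 and 294 without olaparib 2, 567 and 308 without olaparib 3, 502 and 276 without olaparib 4, 556 and 312 without MNA 3 and 605 and 361 without MNA 4, while without MNA 1 the lower genes were 488. The cause of these shifts was not tested.

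Of 133 named genes, 41 lost their call with MNA 2 and 28 in the 12-library fit. The replicate block changed the calls of 4 named genes, of which Parp1, mt-Nd6 and Gpnmb are described. No named gene that was called changed direction under any alternative tried. All alternatives planned were run, and a count minimum set over the 8 libraries was added after seeing the data (976 higher and 875 lower genes).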
